A study of Homo sapiens with 8 samples.

Results

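The mRNAs described here encode the F-box proteins and the core of the SCF ubiquitin ligases. They were taken from the tables by symbol, as all FBXO, FBXL and FBXW symbols with a number, plus BTRC, SKP1, SKP2, CUL1, RBX1 and CCNF. This gave 68 of the 60196 gene symbols, namely 36 FBXO, 17 FBXL and 9 FBXW genes, 3 F-box genes with another symbol (SKP2, BTRC and CCNF) and 3 core genes (CUL1, SKP1 and RBX1). RNA of P-bodies was compared with RNA of the cytosolic fraction in 2 human acute myeloid leukaemia cell lines, HEL, of erythroid and megakaryocytic character, and MOLM-13, of monocytic character. Each line gave a P-body group and a cytosol group of 2 libraries, 4 groups in all, and the labels list no treatment, genotype change or time point for any of them. The word "cyto" of the titles was read as cytosolic, and for the P-body isolation the method was not given in the sources used here. The labels also leave out whether the libraries of a group stem from separate cultures, and p-values here reflect only the differences among these libraries, possibly technical ones.

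SCF ligases attach ubiquitin to proteins and so mark them for the proteasome. CUL1 is the scaffold, RBX1 recruits the ubiquitin-charged E2 enzyme, SKP1 bridges CUL1 to an F-box protein, and the F-box protein picks the substrate. F-box proteins are sorted by the part that binds the substrate, with WD40 repeats in FBXW, leucine-rich repeats in FBXL and other domains in FBXO proteins. In dividing blood cells their substrates include cyclins, inhibitors of cyclin-dependent kinases, MYC and NOTCH1. P-bodies are cytoplasmic granules in which mRNAs are held outside active translation, and whether an mRNA sits there is the question these libraries address.

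Depth was lower in MOLM-13 than in HEL, with total counts of 13153551 to 18071473 per HEL library and 5897625 to 11000536 per MOLM-13 library. Markers fitted the line names: the 16 erythroid and megakaryocytic markers held 0.249% to 0.397% of counts in HEL and 0.0133% to 0.0152% in MOLM-13, and the 16 monocytic and granulocytic markers 0.0142% to 0.0165% in HEL and 0.240% to 0.333% in MOLM-13. The 8 lymphoid markers summed to at most 0.000231% in HEL and 0.0176% in MOLM-13. All 13 mitochondrially encoded mRNAs were called lower in P-bodies in each line, and their sum was 0.375% to 0.403% of counts in P-body against 0.620% to 0.698% in cytosolic HEL libraries, while in MOLM-13 it was 0.542% to 0.555% in P-body and 0.805% to 0.909% in cytosolic libraries. A list of 9 RNAs was drawn up as nuclear-retained, but their place in these cells was not measured. Their sum, which is thus no measure of nuclear RNA, was 0.179% to 0.187% in HEL P-body and 0.125% to 0.137% in HEL cytosolic libraries. In MOLM-13 it was 0.507% to 0.511% in P-body and 0.576% to 0.615% in cytosolic libraries. Members of that list went both ways, with 3 of 8 tested called higher and 3 lower in HEL and 2 and 5 in MOLM-13. In HEL, SNHG14 (2.05), OIP5-AS1 (1.10) and GAS5 (0.43) rose. NEAT1 (-1.11), KCNQ1OT1 (-0.85) and TUG1 (-0.36) fell, while MALAT1 was at -0.01. The part of either list in the results below was not tested. Counts are given as CPM, a level per library size adjusted with TMM factors, which line up the bulk of genes between libraries of a line. The lines were scaled separately, so CPM set side by side across lines are descriptions. A change is thus relative to the bulk of genes, and more of an mRNA in P-bodies cannot be told apart from less of the other mRNAs there.

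In HEL, 53 of the 68 members had enough counts to be tested, and 20 were higher and 10 lower in P-bodies at an adjusted p below 0.05 (edgeR quasi-likelihood test with Benjamini-Hochberg adjustment over all genes). Of all 14772 genes tested in HEL, 27.5% were called higher and 27.1% lower. In MOLM-13, 55 members were tested, 27 were higher and 13 lower, against 32.4% higher and 28.5% lower among all 14089 genes. The members' shares were thus 37.7% and 49.1% higher in HEL and MOLM-13, above those of all genes, and 18.9% and 23.6% lower, below them. Of the genes tested, 11944 in HEL and 11230 in MOLM-13 were matched as protein-coding, as were all tested members. The shares of all genes thus include genes not matched as coding. Coding genes alone are set beside the members further on, within ranges of GC content only. The median log2 change of the tested members was 0.08 in HEL and 0.22 in MOLM-13, beside -0.06 and -0.04 for all genes. Scaling by library totals moves the all-gene median by -0.33 (HEL) and -0.44 (MOLM-13), and the split of the members then becomes 13 higher and 24 lower in HEL and 19 higher and 25 lower in MOLM-13. With that scaling 18.7% of all genes were higher and 45.8% lower in HEL, beside 24.5% and 45.3% of members, and 20.6% and 50.8% in MOLM-13, beside 34.5% and 45.5%. No member passed the filter on low counts through its P-body libraries alone, while FBXL19 and FBXO10 in HEL and FBXL2 and FBXL22 in MOLM-13 passed through the cytosolic libraries alone.

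With TMM factors and no further adjustment, direction was shared by the lines wherever both made a call. Among the 51 members tested in both lines, 20 were higher in both, 7 were lower in both and 0 were called in opposite directions. Of the 11984 genes tested in both lines, 24.5% were higher in both, against 39.2% of the members, and 14.9% were lower in both, against 13.7%. Opposite calls were rare among all genes too, with 0.876% higher in HEL and lower in MOLM-13 and 2.42% the other way. All 20 members higher in HEL were thus higher in MOLM-13 too, beside 84.1% of all genes higher in HEL and tested in both. Among the 20 were BTRC, CUL1, FBXL5, FBXL13, FBXO5, FBXO8, FBXO11, FBXO16, FBXO21, FBXO25, FBXO28, FBXO30, FBXO33, FBXO34, FBXO38, FBXO43, FBXO45, FBXO48 and FBXW7. Lower in both were CCNF, FBXL6, FBXL12, FBXO7, FBXO31, FBXO41 and FBXO46. Another 2 members lower in HEL, FBXO42 and FBXW8, were not called in MOLM-13. Among all genes lower in HEL and tested in both, 51.6% were lower in MOLM-13 too. With DESeq2, 17 of the 20 and 2 of the 7 (FBXO41 and FBXO46) kept their calls in both lines. With library totals, 11 of the 20 and all 7 did, and BTRC, CUL1, FBXL13, FBXO8, FBXO16, FBXO25, FBXO33, FBXO38 and FBXO43 did not. Opposite calls arose under other settings. SKP1 was called lower in HEL and higher in MOLM-13 with library totals (-0.24 and 0.65) and with the GC and length trend removed (-0.43 and 0.43). FBXL15 was called higher in HEL (0.62) and lower in MOLM-13 (-0.34) with that trend removed.

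**Figure D1:**
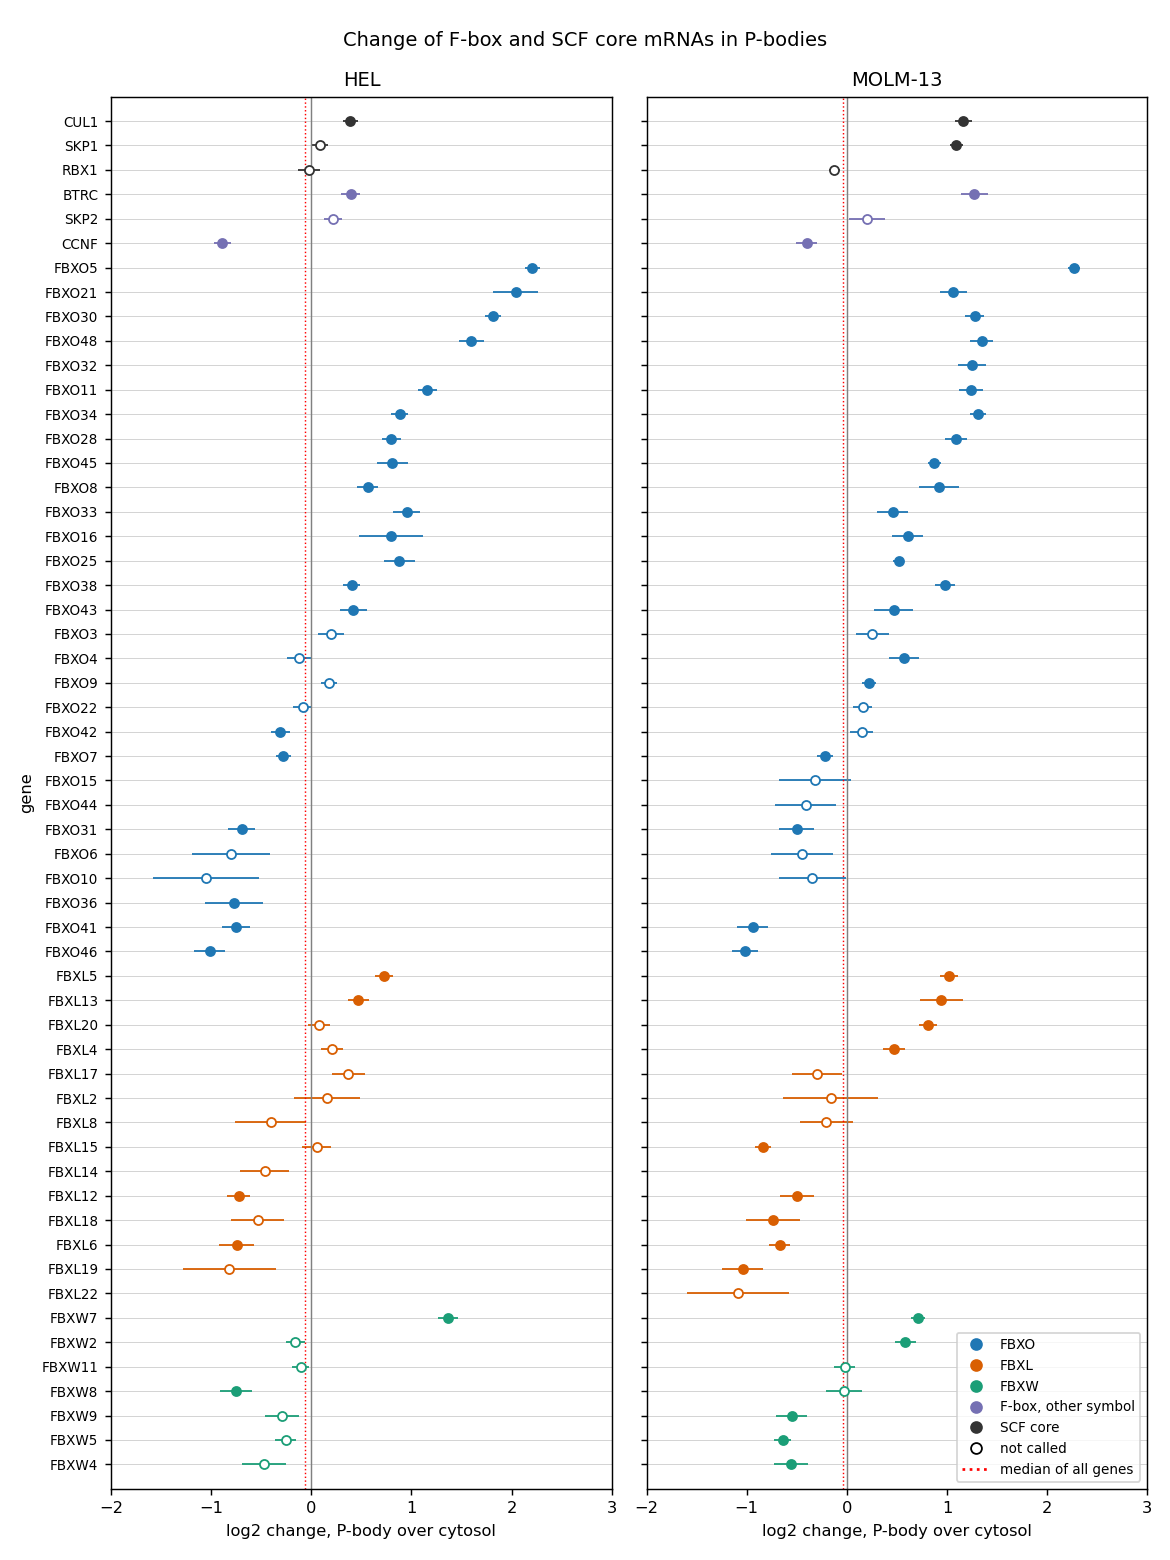
The log2 change of P-body over cytosol (x axis) with its standard error for members tested in at least 1 line (y axis), for HEL and MOLM-13, coloured by family; open points were not called and the dotted line is the median of all genes. FBXO5 stands at the far right in both lines, at 2.21 and 2.27, while FBXO46 is at -1.01 and -1.02.

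The base composition of the coding sequence differed between the members that were higher and those that were lower, as described further on. It can be read in the middle 40 codons of the member with the highest and the member with the lowest mean change among the FBXO and among the FBXW genes called in at least 1 line. These are GENCODE release 29 sequences on GRCh38, with G or C at the third codon position in capitals.
FBXO5: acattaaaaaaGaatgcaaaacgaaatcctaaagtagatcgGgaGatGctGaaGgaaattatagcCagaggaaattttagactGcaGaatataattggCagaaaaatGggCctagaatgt
FBXO46: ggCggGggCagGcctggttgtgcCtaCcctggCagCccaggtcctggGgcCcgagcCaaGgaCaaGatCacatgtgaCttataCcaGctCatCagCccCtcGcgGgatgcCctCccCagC
FBXW7: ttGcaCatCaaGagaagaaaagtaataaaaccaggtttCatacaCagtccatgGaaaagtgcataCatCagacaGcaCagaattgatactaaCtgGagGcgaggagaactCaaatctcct
FBXW4: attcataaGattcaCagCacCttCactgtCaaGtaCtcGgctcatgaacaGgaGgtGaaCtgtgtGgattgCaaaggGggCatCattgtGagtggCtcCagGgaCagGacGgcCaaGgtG
Of the 40 codons, 12 ended in G or C in FBXO5 and 28 in FBXO46. The count was 15 in FBXW7 and 28 in FBXW4. In each pair the member that was higher in P-bodies had fewer of them in this stretch.

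Among the core genes, CUL1 was higher in the P-bodies of both lines, SKP1 in MOLM-13 and RBX1 in neither. CUL1 stood at 153 and 147 CPM in the HEL cytosolic and 200.5 and 191 CPM in the HEL P-body libraries, a log2 change of 0.39 (SE 0.0747, adjusted p = 0.000461). In MOLM-13 it rose from 54.9 and 46.5 to 111 and 115 CPM, a log2 change of 1.17 (SE 0.0799, adjusted p = 2.95e-12). The 2 groups did not overlap in either line. The HEL call of CUL1 was lost with library totals, at a log2 change of 0.06, and after removal of the GC and length trend (described further on), at 0.17.

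SKP1, the adaptor common to all SCF ligases, gave 192 and 167 CPM in HEL cytosol and 190.3 and 189.7 CPM in HEL P-bodies, values that overlapped, with a log2 change of 0.08 (SE 0.0814, adjusted p = 0.407) that turned to -0.24 with library totals. In MOLM-13 it rose from 79.4 and 87.3 to 175 and 181 CPM, by 2.13-fold (log2 change 1.09, SE 0.0649, adjusted p = 1.71e-13). Thus the MOLM-13 P-body libraries stood near the level that all 4 HEL libraries had. RBX1, the RING subunit, was at 94.9 and 82.2 CPM in HEL cytosol and 77.2 and 97.1 CPM in HEL P-bodies, and at 177 and 172 CPM in cytosol and 161 and 159 CPM in P-bodies of MOLM-13. Its log2 changes of -0.02 and -0.12 did not pass (adjusted p = 0.887 and 0.0599), although both MOLM-13 P-body libraries lay below both cytosolic ones. With library totals RBX1 was called lower in both lines, at -0.35 in HEL and -0.56 in MOLM-13. Per kilobase of transcript, RBX1 had the highest cytosolic level of the core, at 74.5 CPM per kb in HEL and 147 in MOLM-13, against 48.9 and 16.5 for CUL1 and 18.9 and 8.79 for SKP1.

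The F-box genes with other symbols went separate ways. BTRC, which recognises phosphorylated CTNNB1 and NFKBIA, rose from 43.7 and 41.5 to 56.6 and 55 CPM in HEL (log2 change 0.39, SE 0.0962, adjusted p = 0.00303). In MOLM-13 the rise was from 12.1 and 11.5 to 28.6 and 28.5 CPM (log2 change 1.27, SE 0.136, adjusted p = 1.24e-08). Its close paralogue FBXW11, which shares these substrates, gave 86.8 and 82.6 CPM in cytosol and 79.6 and 77.8 CPM in P-bodies of HEL, and 45.2 and 37.4 CPM in cytosol and 41 and 39.8 CPM in P-bodies of MOLM-13. FBXW11 passed the test in neither line, with log2 changes of -0.10 (SE 0.0846) and -0.02 (SE 0.102). With library totals it was called lower in both lines, at -0.43 in HEL and -0.46 in MOLM-13. The same held with the GC and length trend removed, at -0.41 and -0.58. The difference between the paralogues within a line was not tested. As with CUL1, the HEL call of BTRC was lost with library totals (0.07) and with the trend removed (0.19).

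CCNF, the cyclin for which the F-box is named and which directs the removal of RRM2 and CCP110, was lower in P-bodies. HEL cytosolic libraries had 166 and 189 CPM and P-body libraries 96.1 and 95.4 CPM (log2 change -0.89, SE 0.0845, adjusted p = 3.9e-07). MOLM-13 cytosolic libraries had 36.2 and 36.2 CPM and P-body libraries 26.2 and 28.7 CPM (log2 change -0.40, SE 0.107, adjusted p = 0.00236). The groups stood apart in both lines, and the MOLM-13 call was lost with DESeq2. SKP2, which targets the kinase inhibitor CDKN1B, was at 58.8 and 56.8 CPM in cytosol and 66.4 and 67.9 CPM in P-bodies of HEL, and at 9.15 and 9.93 CPM in cytosol and 10.6 and 11.4 CPM in P-bodies of MOLM-13. P-body libraries were the higher ones in both lines, but the log2 changes of 0.22 and 0.20 did not pass (adjusted p = 0.054 and 0.346) and turned to -0.11 and -0.24 with library totals.

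**Figure D2:**
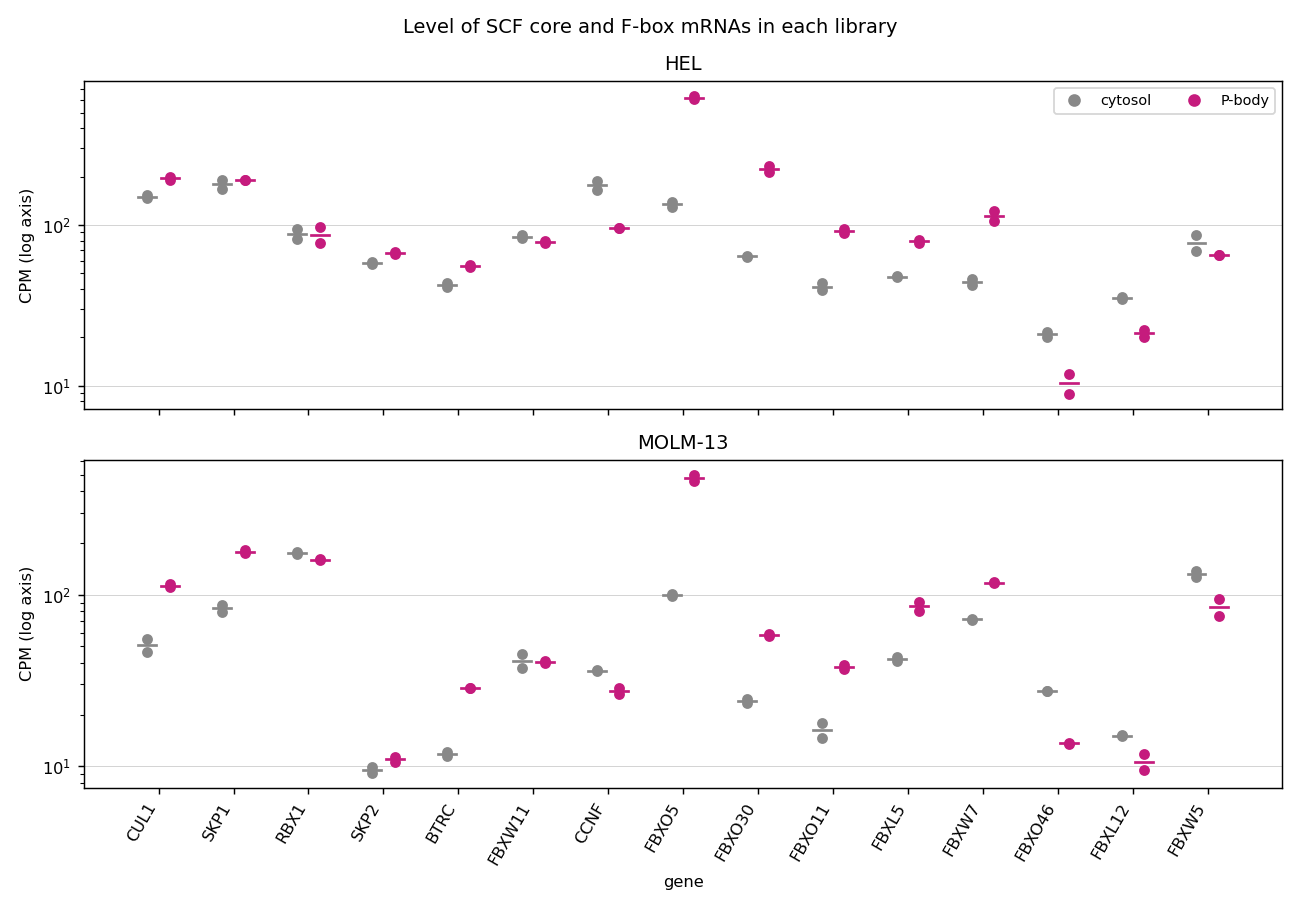
CPM of 15 members in each library (points; y axis logarithmic) with the group mean (bar), cytosol in grey and P-body in magenta, for HEL and MOLM-13. FBXO5 has P-body points at 636 and 607 CPM in HEL and 502 and 459 CPM in MOLM-13, far above its cytosolic points, while all FBXW11 points of a line lie close together.

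The FBXO genes held the members with the strongest rise. FBXO5, known as EMI1 and an inhibitor of the anaphase-promoting complex rather than a typical substrate receptor, had 139.5 and 130.1 CPM in HEL cytosol and 636 and 607 CPM in HEL P-bodies. In MOLM-13 cytosol it had 101 and 98.9 CPM and in MOLM-13 P-bodies 502 and 459 CPM. This was 4.61-fold in HEL (log2 change 2.21, SE 0.0737, adjusted p = 2.61e-11) and 4.81-fold in MOLM-13 (log2 change 2.27, SE 0.0579, adjusted p = 1.43e-20). Every P-body library was above every cytosolic library, and FBXO5 had the greatest log2 change of all tested members in both lines. Per kilobase of transcript, FBXO5 reached 305 CPM per kb in HEL P-bodies and 236 in MOLM-13 P-bodies. The gene spans chr6:152970519-152983579 in GRCh38. FBXO43, known as EMI2 and the inhibitor of the same complex in meiosis, had far lower levels, 15.2 and 15.2 CPM in cytosol and 19 and 21.7 CPM in P-bodies of HEL and 7.82 and 6.78 CPM in cytosol and 9.55 and 10.6 CPM in P-bodies of MOLM-13. It rose by 0.42 and 0.47 on the log2 scale (adjusted p = 0.0154 and 0.0429). Both calls of FBXO43 were lost with library totals (0.10 and 0.03), and the direction turned after removal of the GC and length trend (-0.26 and -0.39). The MOLM-13 call was also lost with DESeq2 and without cytosol replicate 2 (0.38) or P-body replicate 2 (0.42).

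FBXO30, a receptor described in muscle wasting, rose from 64.2 and 63.6 to 234 and 214 CPM in HEL (log2 change 1.81, SE 0.0822, adjusted p = 1.52e-10). It rose from 24.6 and 23.4 to 57.4 and 58.7 CPM in MOLM-13 (log2 change 1.28, SE 0.0985, adjusted p = 2.94e-11). The other receptor of muscle wasting, FBXO32 (atrogin-1), was too low to test in HEL, at 0.115 to 0.543 CPM over the 4 libraries. In MOLM-13, FBXO32 rose from 10.8 and 13.3 to 29.5 and 28.2 CPM (log2 change 1.25, SE 0.140, adjusted p = 2.82e-08). Both genes thus had P-body libraries clear of the cytosolic ones wherever they were tested.

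FBXO21, a receptor for EID1, was scarce in HEL, with 1.90 and 2.25 CPM in cytosol and 8.34 and 8.85 CPM in P-bodies, a log2 change of 2.04 (SE 0.227, adjusted p = 2.2e-06). In MOLM-13 it rose from 13.4 and 14.5 to 29.8 and 28.8 CPM (log2 change 1.06, SE 0.131, adjusted p = 1.32e-07). Its MOLM-13 cytosol therefore had higher CPM of FBXO21 than the HEL P-bodies did. FBXO48 rose from 16.7 and 14.3 to 44.5 and 49.3 CPM in HEL and from 18.6 and 16.3 to 45.2 and 43.2 CPM in MOLM-13, with log2 changes of 1.60 and 1.35 (adjusted p = 3.73e-08 and 1.88e-10).

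FBXO11, the receptor that removes the lymphoma oncoprotein BCL6, rose from 43.5 and 39.2 to 89.2 and 94.9 CPM in HEL and from 18 and 14.5 to 39.1 and 37.1 CPM in MOLM-13. The log2 changes were 1.16 (SE 0.0945, adjusted p = 7.23e-08) and 1.24 (SE 0.124, adjusted p = 3.87e-09). Exons of FBXO11 overlap those of MSH6 on the other strand over 25.2% of their length, and MSH6 changed by -0.25 in HEL and 1.05 in MOLM-13, so shared reads cannot be told apart. FBXO34 rose from 94.4 and 96.9 to 187 and 166 CPM in HEL and from 50.8 and 43.6 to 116 and 117 CPM in MOLM-13 (log2 changes 0.88 and 1.31, adjusted p = 3.79e-07 and 2.33e-13).

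The remaining FBXO members that were higher in both lines changed by 0.40 to 0.95 in HEL and 0.46 to 1.09 in MOLM-13 on the log2 scale. FBXO28 changed by 0.80 and 1.09, and FBXO45, which works with the ligase MYCBP2 in place of CUL1, by 0.81 and 0.87. FBXO8, which also has an ARF exchange domain, changed by 0.56 and 0.92, and FBXO38 by 0.40 and 0.98. Exons of FBXO8 share 16.5% of their bases with CEP44 on the other strand, which rose by 0.89 and 1.51. CEP44 held 4797 counts beside 2324 of FBXO8 in HEL and 1380 beside 282 in MOLM-13, so shared reads cannot be told apart. FBXO25 changed by 0.88 and 0.52, from levels that differed widely between the lines, 7.74 and 7.73 CPM in HEL cytosol against 154 and 147 CPM in MOLM-13 cytosol. FBXO33 changed by 0.95 and 0.46, and its MOLM-13 call (adjusted p = 0.0141) was lost without MOLM-13 cytosol replicate 2, with DESeq2 and with library totals. FBXO16 changed by 0.79 (adjusted p = 0.047) and 0.61, but 51.2% of its exonic bases are shared with ZNF395 on the same strand. The HEL call of FBXO16 was lost with library totals (0.47), with DESeq2 and without either cytosolic replicate or P-body replicate 2. FBXO4 and FBXO9 were called higher in MOLM-13, at 0.57 and 0.22, beside uncalled -0.12 and 0.18 in HEL, and their difference between the lines did not pass (adjusted p = 0.0896 and 0.379). FBXO9 turned to a call of lower in MOLM-13 with library totals (-0.22) and with the GC and length trend removed (-0.56), and its call was lost without MOLM-13 P-body replicate 1 (0.20). FBXO4 went to 0.13 with library totals and -0.05 with that trend removed.

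FBXO genes called lower were 6 in HEL and 4 in MOLM-13. FBXO46, a receptor for FBXO31, went from 20.1 and 21.6 CPM in HEL cytosol to 8.84 and 11.8 CPM in P-bodies and from 27.4 and 27.6 to 13.5 and 13.8 CPM in MOLM-13. It was 2.02-fold lower in each line (log2 changes -1.01 and -1.02, adjusted p = 6.17e-05 and 3.25e-07). FBXO41, best known from neurons, went from 18.9 and 19.7 to 11 and 12 CPM in HEL and from 20.2 and 19.7 to 11 and 9.72 CPM in MOLM-13 (log2 changes -0.75 and -0.94, adjusted p = 0.000295 and 1e-05). Both genes kept the groups apart in each line.

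FBXO31, a receptor for cyclin D1, had 20.4 and 22.4 CPM in cytosol and 13.7 and 12.7 CPM in P-bodies of HEL, and 17.9 and 14.3 CPM in cytosol and 9.87 and 12.8 CPM in P-bodies of MOLM-13. Its log2 changes were -0.70 and -0.50 (adjusted p = 0.000463 and 0.0158), and the MOLM-13 call was lost without cytosol replicate 1 (-0.31), without P-body replicate 1 (-0.30) and with DESeq2. FBXO7, whose gene is mutated in a parkinsonian syndrome, was the most abundant FBXO mRNA of HEL cytosol per kilobase, at 95 CPM per kb. It fell little, with log2 changes of -0.28 in HEL and -0.22 in MOLM-13 (adjusted p = 0.00514 and 0.0229). The HEL call of FBXO7 was lost without P-body replicate 2 (-0.14), and the MOLM-13 call without cytosol replicate 1 or either P-body replicate. FBXO42 (-0.31, adjusted p = 0.0128) and FBXO36 (-0.77, adjusted p = 0.0349) were called lower in HEL. In MOLM-13 FBXO42 was at 0.15 without a call (-0.29 and called lower with library totals), its difference between the lines did not pass (adjusted p = 0.238), and FBXO36 was not tested. The call of FBXO42 was lost without cytosol replicate 1 (-0.27) or P-body replicate 2 (-0.16), and that of FBXO36 without any 1 of the 4 HEL libraries.

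The FBXL genes called higher and lower were near in number, 3 and 2 in HEL and 5 and 5 in MOLM-13. FBXL5, the iron-sensing receptor for IREB2, rose from 47.5 and 48.1 to 81 and 77 CPM in HEL and from 41.3 and 43.2 to 91.3 and 80.04 CPM in MOLM-13 (log2 changes 0.73 and 1.02, adjusted p = 7.13e-06 and 1.78e-10). All P-body libraries of FBXL5 lay above all cytosolic ones of their line.

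FBXL13 rose by 0.47 in HEL and 0.94 in MOLM-13, from 35.1 and 34.8 and 5.61 and 4.84 CPM in cytosol (adjusted p = 0.00118 and 0.000548). The HEL call of FBXL13 was lost with library totals (0.14), and with the GC and length trend removed it gave -0.05 in HEL and 0.18 in MOLM-13, neither called. FBXL20 was at 38.4 and 34.4 CPM in HEL cytosol and 38.1 and 38.6 CPM in HEL P-bodies, which overlapped, and rose from 44.7 and 47 to 87.7 and 73.4 CPM in MOLM-13 (log2 change 0.81, adjusted p = 2.33e-08). FBXL4, which restrains the removal of mitochondria by autophagy, was called in MOLM-13 (log2 change 0.47, adjusted p = 0.001) and not in HEL (0.21, adjusted p = 0.122). After removal of the GC and length trend FBXL4 turned to -0.66 and -0.38.

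FBXL15, a receptor for the ligase SMURF1, showed the sharpest contrast between the lines among the FBXL genes. HEL cytosol had 25.8 and 33.8 CPM and HEL P-bodies 27.7 and 34.3 CPM, which overlapped. In MOLM-13 it fell from 106 and 96.5 to 53.6 and 59.4 CPM (log2 change -0.84, SE 0.0784, adjusted p = 1.11e-09). FBXL6 fell from 36.9 and 52.5 to 21.8 and 31.7 CPM in HEL, where its libraries were widely spread, and from 58.1 and 55.8 to 31.7 and 39.96 CPM in MOLM-13 (log2 changes -0.74 and -0.67, adjusted p = 0.0021 and 3.13e-06). Its exons overlap SLC52A2 on the other strand over 31.7% of their length, and SLC52A2 fell too, by 0.48 and by 0.63.

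FBXL12 fell from 34.7 and 35.5 to 20.1 and 22.4 CPM in HEL (log2 change -0.73, adjusted p = 8.83e-05) and from 15.2 and 15 to 11.8 and 9.49 CPM in MOLM-13 (-0.50, adjusted p = 0.013). FBXL19, which also carries a zinc finger that binds unmethylated CpG DNA, went from 15.3 and 12.3 to 5.41 and 8.06 CPM in MOLM-13 (log2 change -1.04, adjusted p = 9.92e-05). In HEL it was near the floor of the filter, at 0.627 to 1.49 CPM, and was not called. The antisense gene FBXL19-AS1 held 337 counts over the MOLM-13 libraries beside 325 for FBXL19, and shares 2.26% of its exonic bases. FBXL18 fell by 0.74 on the log2 scale in MOLM-13 (adjusted p = 0.022) from 4.72 and 5.69 CPM. Leaving out 1 library ended the MOLM-13 call of FBXL12 (cytosol replicate 1, -0.46; cytosol replicate 2, -0.49; P-body replicate 2, -0.34) and that of FBXL18 (cytosol replicate 2, -0.57; P-body replicate 1, -0.64).

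Among the FBXW genes, FBXW7 was called higher in both lines and FBXW2 in MOLM-13. FBXW7, the tumour suppressor that removes cyclin E, MYC, MCL1 and NOTCH1, rose from 42.1 and 46.4 to 122 and 105 CPM in HEL (log2 change 1.36, SE 0.0992, adjusted p = 2.02e-08). In MOLM-13 it rose from 71.6 and 72.4 to 117 and 119 CPM (log2 change 0.71, SE 0.0681, adjusted p = 1.75e-09). Both lines had their P-body libraries above their cytosolic ones, and the cytosolic values were lower in HEL than in MOLM-13. FBXW2 was at 58.8 and 64.6 CPM in cytosol and 55.8 and 54.7 CPM in P-bodies of HEL (log2 change -0.16, adjusted p = 0.166), and rose from 30.5 and 26.1 to 43.1 and 41.4 CPM in MOLM-13 (log2 change 0.58, adjusted p = 4.01e-05).

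FBXW5, which also works with CUL4 ligases, fell from 138 and 128 to 75.1 and 95 CPM in MOLM-13 (log2 change -0.64, adjusted p = 2.37e-07). In HEL it was at 69.1 and 86.4 CPM in cytosol and 65.3 and 65.3 CPM in P-bodies and missed the threshold (log2 change -0.25, adjusted p = 0.0543). With the GC and length trend removed FBXW5 turned to 0.05 in MOLM-13 and to a call of higher in HEL (0.34, adjusted p = 0.0162). FBXW4 (-0.56, adjusted p = 0.00744) and FBXW9 (-0.55, adjusted p = 0.00392) were called lower in MOLM-13, from 14 and 13 CPM and 17 and 16.2 CPM in cytosol. In HEL they changed by -0.47 and -0.30 without a call, and the difference between the lines did not pass (adjusted p = 0.516 and 0.192). With the GC and length trend removed the MOLM-13 values were -0.03 and 0.15. The FBXW4 call was lost without MOLM-13 cytosol replicate 1 (-0.48), and both were lost with DESeq2. FBXW8, the partner of CUL7, went from 12.7 and 11.9 to 7.21 and 7.35 CPM in HEL (log2 change -0.75, adjusted p = 0.00109), and gave 9.74 and 9.93 CPM in cytosol and 9.34 and 9.96 CPM in P-bodies of MOLM-13, where the groups overlapped.

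Counts of the families are set here against those of all genes, and few FBXL and FBXW genes were tested. In HEL, 14 of 26 tested FBXO genes were higher and 6 lower, 3 of 14 FBXL genes higher and 2 lower, and 1 of 7 FBXW genes higher and 1 lower. In MOLM-13 the counts were 17 higher and 4 lower of 28 FBXO, 5 and 5 of 14 FBXL, and 2 and 3 of 7 FBXW genes. Shares higher in HEL and MOLM-13 were 53.8% and 60.7% for FBXO, 21.4% and 35.7% for FBXL and 14.3% and 28.6% for FBXW. Of all genes tested, 27.5% and 32.4% were higher. Shares lower were 23.1% and 14.3%, 14.3% and 35.7%, and 14.3% and 42.9%, beside 27.1% and 28.5% of all genes. The FBXO share higher thus stood above that of all genes, while the FBXL and FBXW shares rest on few genes. The median log2 change was 0.41 in HEL and 0.49 in MOLM-13 for FBXO, 0.06 and -0.25 for FBXL, and -0.25 and -0.03 for FBXW. For all genes it was -0.06 and -0.04. The FBXL median in HEL turned to -0.26 with library totals. Moving CCNF, SKP2 and BTRC to the families of their F-box names gave medians of 0.40 and 0.47 for FBXO, 0.08 and -0.205 for FBXL, and -0.21 and -0.03 for FBXW. No test was made of a difference between families, whose members are not replicates.

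Base composition ran along with these differences. Across members, the log2 change had a Spearman correlation with the GC content of the transcript of -0.683 in HEL (53 members) and -0.773 in MOLM-13 (55 members), and with GC at the third codon position of -0.701 and -0.776. Over all coding genes the correlation with transcript GC was -0.671 in HEL (11944 genes) and -0.720 in MOLM-13 (11230 genes). Genes are not independent replicates and share their libraries, so these values are descriptions. Higher members had a median GC content of 41.7% in each line, lower members 58.5% in HEL and 62.4% in MOLM-13. The median for tested FBXO genes was 42.7% in HEL and 43.8% in MOLM-13, for FBXL 54.3% and 54.7%, and for FBXW 58.6% in both.

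The members are set here beside the coding genes of like composition. Of 17 members with a GC content of 55% or more, 0 were higher and 7 lower in HEL, where 2.34% of such coding genes were higher and 56.6% lower. Of 18 such members in MOLM-13, 0 were higher and 12 lower, beside 3.07% and 62.6% of coding genes. Below 45%, 15 of 24 members were higher in HEL and 21 of 24 in MOLM-13, beside 65% and 73.3% of coding genes. Between 45% and 55%, 5 of 12 members were higher and 2 lower in HEL, beside 20.2% and 31.7% of coding genes, with median log2 changes of 0.29 and -0.13. In MOLM-13, 6 of 13 members in that range were higher and 1 lower, beside 31.2% and 22.2%, with medians of 0.20 and 0.04. Below 45%, the medians of members and coding genes were 0.45 and 0.60 in HEL and 0.93 and 0.82 in MOLM-13. At 55% or more they were -0.73 and -0.50 in HEL and -0.55 and -0.52 in MOLM-13. Members and coding genes of the outer ranges thus mostly went the same way. In the middle range the members had the higher median, but on only 12 and 13 members, and no difference was tested. Transcript length had weaker correlations with the change, 0.236 in HEL and 0.349 in MOLM-13.

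**Figure D3:**
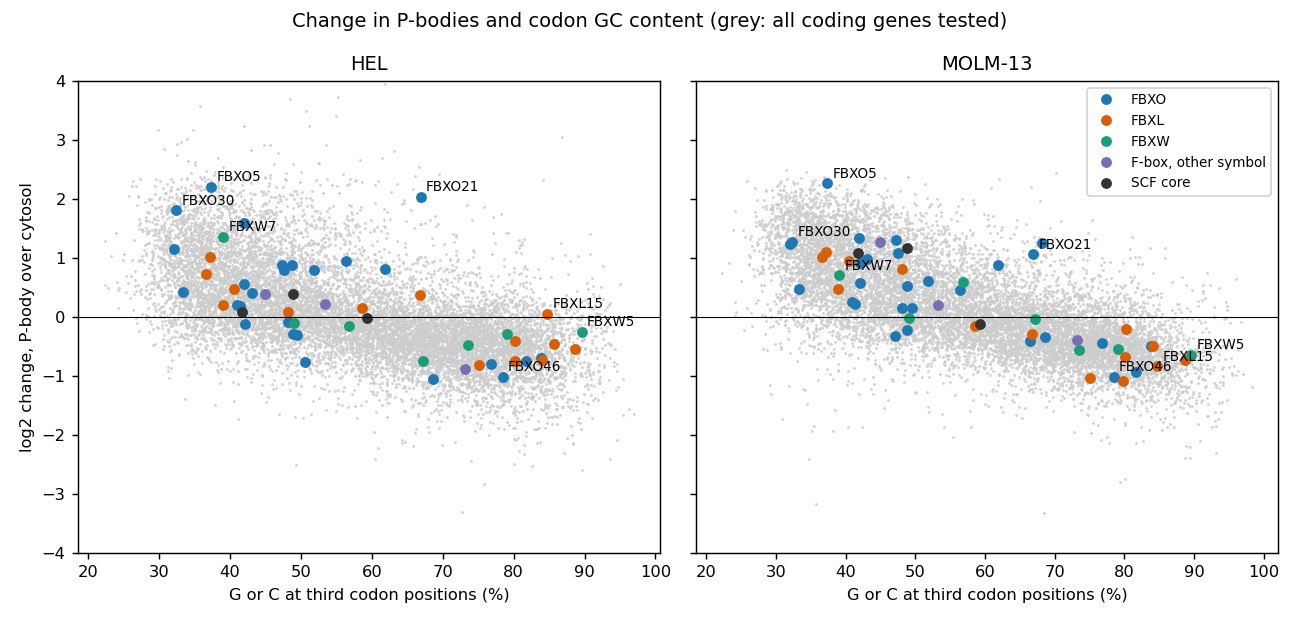
The log2 change of P-body over cytosol (y axis) against the percentage of G or C at the third codon position (x axis), for all coding genes tested (grey) and the members (coloured by family), in HEL and MOLM-13. Members lie within the grey cloud and fall with it from left to right, with FBXO5 and FBXO21 on its upper edge; ZNF730, at 8.19 in HEL, lies above the plotted range.

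With the trend of change on GC content and transcript length over all genes removed, the family medians drew together, at 0.03 and -0.03 for FBXO, 0.03 and -0.15 for FBXL, and 0.11 and 0.05 for FBXW in HEL and MOLM-13. The counts became 14 higher and 12 lower in HEL (26.4% and 22.6%) and 18 higher and 9 lower in MOLM-13 (32.7% and 16.4%). Of all genes in that fit, 23.3% were higher and 21.2% lower in HEL, and 26.2% and 22.6% in MOLM-13. Of the 20 members higher in both lines, 9 were still called higher in both, among them FBXO5, FBXO11, FBXO16, FBXO21, FBXO30, FBXO34, FBXO48 and FBXW7. FBXO5 kept log2 changes of 1.44 and 1.45, FBXO21 of 2.02 and 0.77, FBXO34 of 0.83 and 0.98, and FBXW7 of 1.22 and 0.36. Of the 7 members lower in both lines, FBXO46 alone kept both calls, at -0.43 and -0.51. The direction turned for SKP1 in HEL (-0.43) and for FBXL6 (0.08), FBXO25 (-0.18), FBXO33 (-0.03) and FBXW2 (-0.03) in MOLM-13. FBXO22, called in neither line with TMM factors, was called lower in both with the trend removed, at -0.86 and -0.64, and with library totals, at -0.41 and -0.28. FBXW11 was likewise called lower in both lines with each of these settings, as given above. FBXO21 is a member that stood off the trend, with 66.9% G or C at the third codon position against 37.4% in FBXO5.

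The letters TGTANATA, the core of the sequence that Pumilio proteins bind in 3′ untranslated regions, were searched on the transcript strand of each member's 3′ untranslated region. The letters ATTTA were counted in the same regions too, and their counts are not given here. They were found in 10 of 20 members higher in HEL (50%) and 2 of 10 lower (20%), and in 15 of 26 members higher in MOLM-13 (57.7%) and 1 of 12 lower (8.33%). Coding genes whose 3′ untranslated region was 0.5 to 2 times the median length of the higher members held it in 30.2% of cases in HEL and 34.1% in MOLM-13, on the same strand. The 3′ untranslated regions of higher members ran from 109 to 9163 bases in HEL and up to 9163 bases in MOLM-13. That range of coding genes therefore does not match each of them in length. Their median length was 1512 bases in HEL and 1869 in MOLM-13, against 1444 and 842 for lower members. Of members called neither way, 33.3% held the letters in HEL and 13.3% in MOLM-13. The higher members are also poorer in G and C, and no part of the difference in these shares was tested. The matches in FBXO5, CUL1 and FBXO30 are shown with 8 bases on each side, as members called higher in both lines, with the match in capitals.
FBXO5 first match: tgtatacaTGTAAATAtttctgta
FBXO5 last match: ctcttgtaTGTACATAtaaaaata
CUL1: ttcaagtcTGTAAATAcggacacc
FBXO30: tgtcactgTGTATATAatgttttg
The FBXO5 matches lie at bases 548 to 555 and 596 to 603 of a 3′ untranslated region of 634 bases. A match is a run of letters and not a measured binding site.

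The P-body change differed between the lines for 13 of the 58 members tested for it (edgeR interaction term, MOLM-13 change minus HEL change). The difference was positive for 6, against 9.15% of 17477 genes, and negative for 7, against 13.0%. The shares of members were thus 10.3% and 12.1%, near those of all genes. This difference depends on how libraries of different lines are scaled: the median over all genes was -0.11 with TMM factors over the 8 libraries and 0.08 with factors from each line alone, a setting added once the data had been seen. With line-wise factors 11 members had a positive and 4 a negative difference, against 15.1% and 8% of all genes. The median over all genes also moved when 1 library was left out with TMM factors over the others. It was 0.165 without HEL cytosol replicate 1, 0.138 without HEL cytosol replicate 2 and 0.192 without HEL P-body replicate 1. With both scalings 10 members were called, and each is given below with both values.

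SKP1 and CUL1 of the core, and BTRC, changed more in MOLM-13, while RBX1 had a difference of -0.29 that did not pass (adjusted p = 0.117). SKP1 had a difference of 0.82 (SE 0.111, adjusted p = 1.28e-05) with TMM over the 8 libraries and 1.01 with line-wise factors. CUL1 had 0.58 (SE 0.113, adjusted p = 0.00058) and 0.78, and BTRC 0.69 (SE 0.164, adjusted p = 0.00359) and 0.88. For SKP1, CUL1 and BTRC the MOLM-13 cytosolic CPM were below the HEL ones, while for RBX1 they were above them. FBXL20 (0.55 and 0.74), FBXW2 (0.55 and 0.74) and FBXO38 (0.38 and 0.57) had the same sign. FBXO38 was at the threshold (adjusted p = 0.0451) and was not called without HEL P-body replicate 2 (0.32), MOLM-13 cytosol replicate 2 (0.27) or either MOLM-13 P-body replicate. FBXL20 was not called without MOLM-13 P-body replicate 1 (0.41), nor FBXW2 without MOLM-13 cytosol replicate 2 (0.45).

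FBXO21, FBXL15, FBXW7 and FBXO30 changed more in favour of HEL P-bodies. The difference was -1.16 for FBXO21 (SE 0.253, adjusted p = 0.00178) and -1.08 for FBXL15 (SE 0.172, adjusted p = 8.28e-05). It was -0.84 for FBXW7 (SE 0.126, adjusted p = 4.09e-05) and -0.73 for FBXO30 (SE 0.126, adjusted p = 0.000201). Line-wise factors gave -0.97, -0.89, -0.65 and -0.54. FBXO21 was not called without HEL cytosol replicate 1 (-0.76), nor FBXO30 without HEL P-body replicate 1 (-0.35). For FBXO25 (-0.55), FBXO33 (-0.68) and FBXW5 (-0.58) the call was lost with line-wise factors, at -0.36, -0.49 and -0.39. For FBXO5 the difference of -0.13 (SE 0.0957, adjusted p = 0.384) did not pass.

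**Figure D4:**
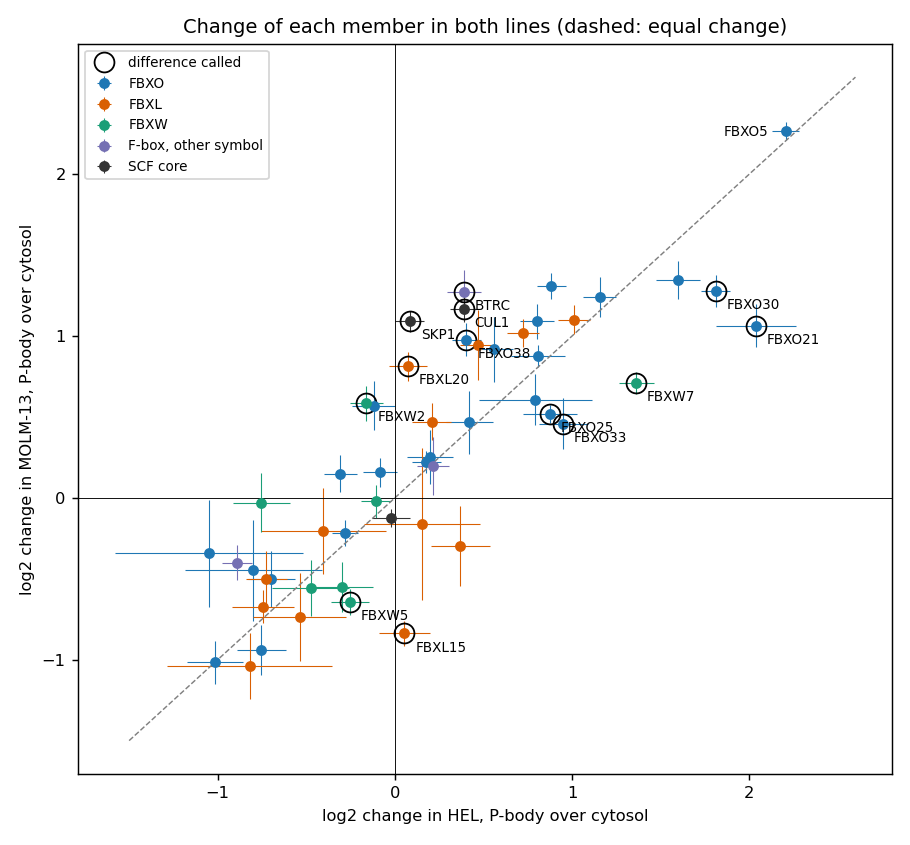
The log2 change in MOLM-13 (y axis) against that in HEL (x axis) for the 51 members tested in both lines, with standard errors; circles mark members whose difference between the lines was called and the dashed line marks equal change. SKP1, CUL1 and BTRC lie above the line, FBXO21, FBXO30 and FBXW7 below it, and FBXO5 on it.

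The genes that load, switch and partner SCF ligases were taken from lists of their own, whose counts stand beside 27.5% of all genes higher and 27.1% lower in HEL and 32.4% and 28.5% in MOLM-13. Of the 14 genes of NEDD8 conjugation and receptor exchange tested in HEL, 5 were higher and 2 lower, and of 13 in MOLM-13, 9 and 2. DCUN1D1, which helps to place NEDD8 on cullins, was highest in both lines, at 190.6 and 171.8 CPM in cytosol and 667.6 and 638.2 CPM in P-bodies of HEL (log2 change 1.85, adjusted p = 5.78e-11) and 51.4 and 55.3 against 137.2 and 128.4 CPM in MOLM-13 (1.31, adjusted p = 5.15e-14). UBE2M, the E2 enzyme for NEDD8, was the lowest, at -0.90 in HEL (SE 0.304, adjusted p = 0.0217) and -1.39 in MOLM-13 (adjusted p = 8.02e-11). Its HEL groups overlapped, at 35.44 and 53.85 CPM in cytosol and 12.73 and 35.53 CPM in P-bodies. Of 10 subunits of the COP9 signalosome, which takes NEDD8 off again, 4 were higher and 3 lower in HEL and 5 and 3 in MOLM-13. They ran from COPS2, at 1.76 and 2.00, to GPS1, at -0.39 and -0.64 (adjusted p of COPS2 1.53e-10 and 1.15e-19, of GPS1 0.000949 and 3.44e-06).

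Of 12 other cullins and their linkers, 4 were higher and 3 lower in HEL and 7 and 3 in MOLM-13, with medians of 0.03 and 0.22. CUL5 led in HEL (1.56, adjusted p = 1.32e-10) and CUL3 in MOLM-13 (1.55, adjusted p = 2.27e-12), while CUL7 was lowest in HEL (-1.20, adjusted p = 9.53e-07) and DDB1 in MOLM-13 (-0.78, adjusted p = 4.12e-09). Of 12 E2 enzymes and partners, 3 were higher and 3 lower in HEL and 4 and 4 in MOLM-13. SUGT1, a partner of SKP1, was the highest of them at 1.46 and 1.44 (adjusted p = 5.89e-10 and 7.03e-19). The lowest were UBE2D1 in HEL (-0.54, adjusted p = 0.0153) and CDC34, the E2 enzyme that extends chains on SCF substrates, in MOLM-13 (-0.97, adjusted p = 1.07e-08). The histone demethylases KDM2A and KDM2B, which carry an F-box but fall outside the symbols used here, were lower in both lines. KDM2A changed by -0.90 and -0.84 and KDM2B by -0.48 and -0.34 (adjusted p = 4.55e-05 and 5.85e-08, and 0.00668 and 0.00137).

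Among mRNAs of proteins described as SCF substrates, 13 of 42 were higher and 17 lower in HEL (31% and 40.5%), and 23 of 45 higher and 10 lower in MOLM-13 (51.1% and 22.2%), with medians of -0.17 and 0.40. CCP110, a substrate of CCNF, rose most in HEL (1.98, adjusted p = 4.77e-11), and BORA, a substrate of BTRC, in MOLM-13 (2.35, adjusted p = 1.13e-13). NOTCH1, a substrate of FBXW7, was lowest in HEL (-1.70, adjusted p = 7.80e-07) and CDT1, a substrate of SKP2, in MOLM-13 (-1.34, adjusted p = 4.51e-13). For comparison, of the CUL3 adaptors of the KLHL and KBTBD families 16 of 30 were higher and 7 lower in HEL and 12 of 28 and 6 in MOLM-13, with medians of 0.55 and 0.28. They ran from KLHL28 (2.57, adjusted p = 2.56e-11) to KLHL26 (-0.80, adjusted p = 0.0100) in HEL and from KBTBD8 (1.91, adjusted p = 6.21e-15) to KLHL3 (-1.28, adjusted p = 0.0208) in MOLM-13. No list was tested as a whole.

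The other members showed no call or could not be tested. FBXL2, FBXL8, FBXL17, FBXO3, FBXO6, FBXO10 and FBXO22 were tested in both lines and called in neither. FBXO22, the receptor for KDM4 demethylases, was among the better measured of these, at 73.8 and 64.7 CPM in cytosol and 64.9 and 65.6 CPM in P-bodies of HEL and 51.6 and 61.6 CPM in cytosol and 67.3 and 59.4 CPM in P-bodies of MOLM-13, with overlapping groups in both lines. FBXL14 and FBXO36 were tested in HEL only, and FBXL22, FBXO15, FBXO32 and FBXO44 in MOLM-13 only. Of these, FBXL14 (-0.47), FBXL22 (-1.09), FBXO15 (-0.32) and FBXO44 (-0.41) were not called. Another 11 had too few counts in both lines, namely FBXL7, FBXL16, FBXO2, FBXO17, FBXO24, FBXO27, FBXO39, FBXO40, FBXO47, FBXW10 and FBXW12. Their highest value in any library was 0.949 CPM, so a change in them was not detectable at this depth.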

How the data were processed

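The authors deposited raw read counts per gene symbol, whole numbers in a table for each line. The submitters' processing notes list GRCh38 as the build and STAR, DESeq2 and SAMtools 1.12 as tools. The read counter, annotation release, strand setting and filters were not given in the sources used here. With strand unknown, reads of an antisense partner or an overlapping gene cannot be told from those of a member. A set of 112 symbols on 1348 rows was left out as ambiguous, which left 60196 symbols, 68 of them members, all matched to GENCODE release 29.

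Within each line, P-bodies were set against cytosol by edgeR's quasi-likelihood test (edgeR 4.0.16, R 4.3.3) on the deposited counts with TMM factors, after filterByExpr with a count of 10, with Benjamini-Hochberg adjustment over all genes tested and calls at an adjusted p below 0.05. P-body libraries had TMM factors of 0.884 to 0.903 (HEL) and 0.858 to 0.860 (MOLM-13), cytosolic ones of 1.12 (HEL) and 1.16 to 1.17 (MOLM-13). Lines were compared by the interaction term of a fit to all 8 libraries. DESeq2 1.42.0 was an alternative. Transcript properties are those of the transcript whose coding sequence is longest, and the GC and length trend was removed by an offset per gene and library. The libraries of a group were not copies of each other: chi-square per degree of freedom ran from 1.87 to 6.15.

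Members named with full values were the core genes, SKP2, BTRC and CCNF, the called members with the greatest and the least change in each family and line, members with a called interaction, and members with well described substrates (FBXW11, FBXW7, FBXL5 and FBXO11). FBXO8, FBXO28, FBXO45, FBXO16, FBXO43, FBXO4, FBXO9 and FBXO22 were named beside them after their values were seen. Members tested in 1 line only were named. The members and lists were chosen with earlier results of these data known. Protein comparisons of paralogues were not made here. A member that is counted in the totals is not reported here by name.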

Additional observations from a re-analysis of the deposited data

Results flagged for a closer look

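The change from cytosol to P-bodies differed between HEL and MOLM-13 for 13 members, by the interaction term of an edgeR quasi-likelihood fit over all 8 libraries. On the log2 scale, as MOLM-13 change minus HEL change, the difference was 0.82 for SKP1, 0.69 for BTRC, 0.58 for CUL1, 0.55 for FBXL20, 0.55 for FBXW2 and 0.38 for FBXO38. It was -1.16 for FBXO21, -1.08 for FBXL15, -0.84 for FBXW7, -0.73 for FBXO30, -0.68 for FBXO33, -0.58 for FBXW5 and -0.55 for FBXO25. With TMM factors from each line alone, chosen after seeing the data, FBXO25, FBXO33 and FBXW5 were not called and CCNF, FBXO4, FBXO34, FBXO42 and FBXW8 were.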

How the results depend on the processing

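Library totals in place of TMM gave 13 members higher and 24 lower in HEL and 25 lower in MOLM-13, and DESeq2 gave 6 lower in MOLM-13. Median log2 changes in HEL with library totals were 0.087 for FBXO, -0.26 for FBXL and -0.58 for FBXW, and in MOLM-13 0.054, -0.69 and -0.47. With the GC and length trend removed, FBXO gave 0.028 in HEL and -0.026 in MOLM-13, and FBXW 0.11 and 0.051. Without a filter on low counts FBXO gave 0.17 in HEL and 0.55 in MOLM-13, and with DESeq2 0.22 and 0.57, while FBXL gave 0.16 in HEL with DESeq2. At a CPM of at least 5 the medians were 0.47 for FBXO and 0.12 for FBXL in HEL and -0.12 for FBXW in MOLM-13. Leaving out 1 library at a time, with the lone library of its group assumed to vary like the others, gave 0.0023 to 0.066 for FBXL and -0.41 to -0.14 for FBXW in HEL, and 0.456 to 0.56 for FBXO, -0.36 to -0.11 for FBXL and -0.14 to -0.016 for FBXW in MOLM-13. Among named members called under either setting, signs turned with the trend removed for FBXL13 (-0.053), FBXL4 (-0.66), FBXO43 (-0.26), FBXO9 (-0.40), FBXW5 (0.34) and SKP1 (-0.43) in HEL and for FBXL4 (-0.38), FBXL6 (0.080), FBXO22 (-0.64), FBXO4 (-0.054), FBXO43 (-0.39), FBXO9 (-0.56), FBXO25 (-0.18), FBXO33 (-0.029), FBXW2 (-0.034), FBXW5 (0.051) and FBXW9 (0.15) in MOLM-13. They turned with library totals for SKP1 in HEL (-0.24) and for FBXO42 (-0.29), FBXO22 (-0.28) and FBXO9 (-0.22) in MOLM-13, and, without a call, for FBXL15, FBXL20, FBXL4, FBXO9 and SKP2 in HEL and SKP2 in MOLM-13. The cause of these shifts was not tested. Libraries sharing a number did not deviate together (correlation -0.0685 in HEL and -0.0103 in MOLM-13). With that replicate number as a block, 19 members were higher and 11 lower in HEL, 27 and 13 in MOLM-13, and 13 differed between the lines. The block keeps fewer degrees of freedom, and MOLM-13 libraries were the shallower ones, which limits members of low count most.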
